A study of Mus musculus with 11 samples.

Results

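Within cluster 1, the cluster of stellate ganglion neurons richest in the neuropeptide galanin, cells were compared by how much galanin message (Gal) they held. The cells were chosen from their own Gal values: within each of 3 sets of pooled mice, the cells of cluster 1 were ranked by Gal counts per 10000 counts of the cell, and the top and the bottom 1 in 3 were kept. This gave 128 Gal-high and 128 Gal-low cells, 256 of the 388 cells of cluster 1 and of the 878 cells in the deposited table. The 132 cells in between are called the middle group. Because the groups were made with Gal, its level in them is a description, and Gal was left out of every test.

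All cells came from C57BL/6J male mice, 6 to 8 weeks old, injected 3 days before harvest with 2 retrograde tracers, CTB-488 into a forelimb and CTB-555 into interscapular brown fat. Every cell shares this treatment, and no untraced animals were part of the material analysed here. The stellate ganglia of 2 mice were pooled in each set, so Set 1, Set 2 and Set 3 are the replicates, and the 4, 4 and 3 plates of the sets are repeats of one pool. The series text gives 1039 cells across 11 plates, against the 878 in the table. Cluster numbers are the authors' own, and no cell could be tied to its tracer.

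Galanin is a peptide made by many peripheral and central neurons, stored in dense-core vesicles and released with the main transmitter. It acts on G-protein-coupled receptors that mostly dampen excitability and release. In sympathetic neurons, whose main transmitter is noradrenaline and whose usual peptide partner is neuropeptide Y, galanin is best known for its strong induction after axotomy, through gp130 cytokines such as leukaemia inhibitory factor and through loss of target-derived nerve growth factor. Its level among neurons of an uncut ganglion is described here.

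Every cell of cluster 1 held Gal counts, from 0.892 to 147 per 10000 with a median of 52.8. The means of the Gal-high cells in Sets 1, 2 and 3 were 98.1, 71.6 and 91.7 counts per 10000. The Gal-low cells had means of 23.5, 17.2 and 19.4. Gal ran as a continuum without a gap at the borders of the groups. The lowest Gal-high cell had 78.1, 56.7 and 70.5 counts per 10000 in Sets 1, 2 and 3, and the highest middle cell 77.6, 56.6 and 70.4. At the lower border the lowest middle cell had 43.4, 32.8 and 39.8, and the highest Gal-low cell 43.1, 32.7 and 39.5. Gal-low is relative: the median over cluster 2, the other large cluster, was 6.78 counts per 10000, below the Gal-low medians of 23, 17 and 15.8. Both groups were present on all 11 plates, with Gal-high cells making up 16.1% to 48.3% of the cluster 1 cells of a plate.

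**Figure D1:**
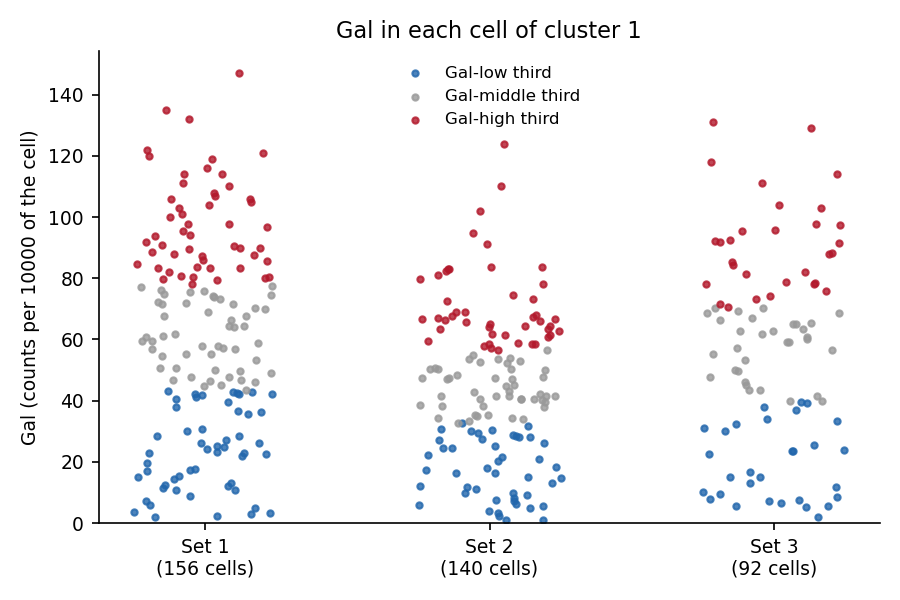
Gal in each cell of cluster 1, in counts per 10000 of the cell, by set (156, 140 and 92 cells). Each point is a cell, red for Gal-high, grey for middle and blue for Gal-low; the colours meet without a gap because the groups were cut from this value, and the cuts lie lower in Set 2.

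Both groups were sympathetic neurons by their markers. Th and Dbh, the enzymes of noradrenaline synthesis, had counts in 100% of the cells of both groups, as did Slc6a2, the noradrenaline transporter, and Hand2, a sympathetic transcription factor. Gal-high cells had fewer counts: the median per cell was 26272, 28622 and 25531 in the 3 sets, against 28454, 34250 and 30518 in Gal-low cells, a mean difference of -4266. The direction was the same in 3 of 3 sets, and the exact permutation test gave p = 0.25, the smallest that 3 pairs allow. Summed markers of satellite glia and Schwann cells were at 13.5 to 16.3 counts per 10000 in Gal-high and 14.5 to 18.2 in Gal-low cells. None of the 10 of these markers tested with limma passed, with 3 at an unadjusted p under 0.05 and 2 passing with voom weights. Markers of macrophages and of erythrocytes summed to at most 0.0372 and 0.0104 in either group. Of the 330 genes called below, 288 still passed when cells were ranked within 4 bins of depth, 215 when each was thinned to 15000 counts and 289 without the 10% of cells richest in glial counts.

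Outside Gal, 330 of 10317 genes differed between Gal-high and Gal-low cells, 3.20% of those tested, at a Benjamini-Hochberg adjusted p under 0.05 from limma with the set as a block. Of these, 154 (1.49%) were higher and 176 (1.71%) were lower in Gal-high cells. The middle cells, which the test did not use, lay between the other groups in 3 of 3 sets for 155 of the 330. They were cut from the same Gal ranking, and the genes were picked for a gap between the outer groups. The count is therefore a description, and the share over all genes tested was not counted. The largest differences were losses of the serotonin receptor genes Htr3a and Htr3b and of the myosin light chain gene Myl1, and gains of the granule gene Chga and the surface glycoprotein gene Thy1. Differences are given as means of log2(1 + counts per 10000), which understate the change of genes at low levels. The p-values measure how the difference within a set varied over 3 pooled sets. Through limma they also draw on the spread of the other genes. With Set 1 left out 217 genes passed, and without the block 43.

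**Figure D2:**
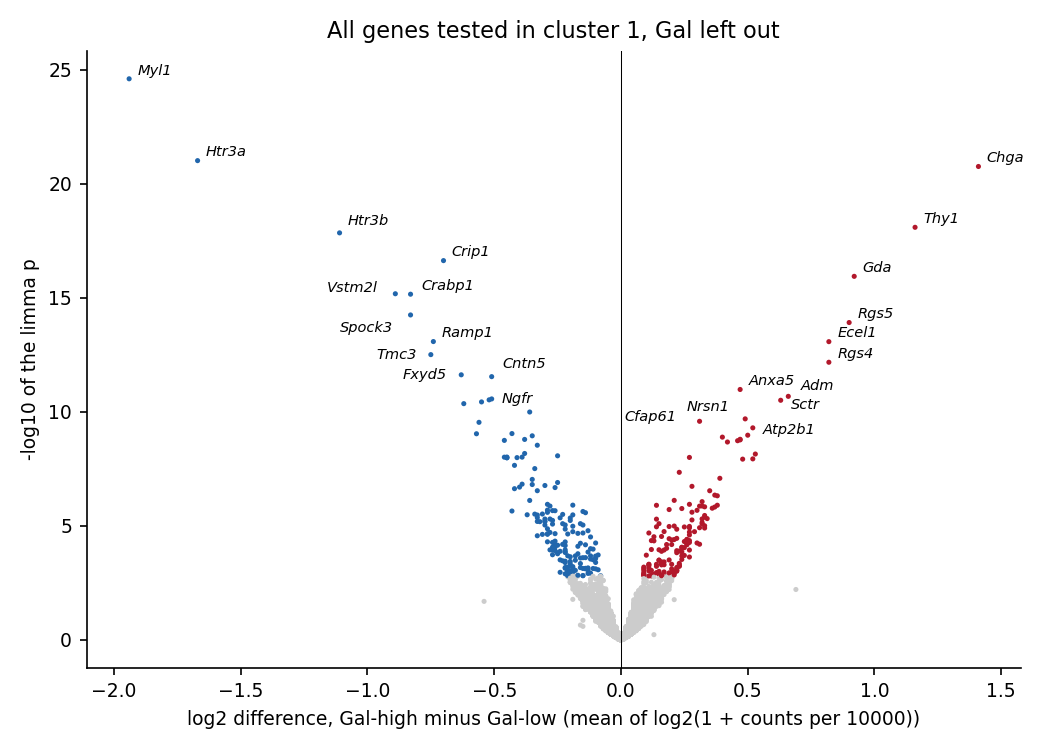
Each point is 1 of 10317 genes, with the log2 difference between Gal-high and Gal-low cells across and -log10 of the unadjusted limma p up. Red marks the 154 genes that were higher, blue the 176 that were lower and grey those that did not pass; the 12 genes with the smallest p on each side are named.

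Htr3a and Htr3b encode the subunits of the serotonin-gated cation channel. Htr3a stood at 0.674, 1.08 and 1.77 counts per 10000 in the Gal-high cells of Sets 1, 2 and 3, and at 4.47, 3.79 and 5.83 in the Gal-low cells. The groups did not overlap, and the mean was 4.00-fold higher in Gal-low cells (log2 difference -1.67, SE 0.0693, limma adjusted p = 5.06e-18). Htr3b, at 0.233, 0.367 and 0.389 against 1.73, 1.78 and 2.39, was 5.97-fold higher in Gal-low cells (-1.11, SE 0.0588, limma adjusted p = 2.97e-15). With the groups cut anew within each plate, both genes were lower in Gal-high cells on 11 of 11 plates. They lie side by side on the minus strand of chromosome 9 in GRCm38, Htr3a at chr9:48899213-48911099 and Htr3b at chr9:48935008-48964990, with 23908 bases between them. Their levels went together over cells: the mean within-set Spearman correlation was 0.73 over 367 cells thinned to the same depth.

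Htr3a also differed in how many cells held it. In cells thinned to 15000 counts, Htr3a was seen in 31.4% of 121 Gal-high cells, 59.8% of 122 middle cells and 91.9% of 124 Gal-low cells. Before thinning the shares were 39.1%, 65.9% and 93.8%. For Htr3b the thinned shares were 19.8%, 45.1% and 81.5%. In the other clusters Htr3a was seen in 82.7% of cluster 2, 66.7% of cluster 3 and 98.1% of cluster 4 cells, so the Gal-high cells of cluster 1 had the lowest share of all the groups compared. Because cDNA was pooled within a plate, a share at this level may include counts from other wells, and it is not read as a share of expressing cells.

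Myl1, an alkali light chain of the myosin of fast skeletal muscle, fell furthest. It was at 0.533, 0.902 and 0.170 counts per 10000 in the Gal-high cells of the 3 sets and at 5.12, 5.56 and 4.49 in the Gal-low cells, with the middle cells at 2.52, 2.34 and 1.63. The groups were far apart in every set, with a 9.45-fold higher mean in Gal-low cells (-1.94, SE 0.0612, limma adjusted p = 2.61e-21). The call was lost with voom weights on summed counts (adjusted p = 0.105), and kept in the other 16 repeats. At 15000 counts Myl1 was seen in 24.0%, 57.4% and 93.5% of Gal-high, middle and Gal-low cells, and in 11.3% of cluster 4 cells.

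Chga encodes chromogranin A, a core protein of dense-core granules, the compartment in which galanin is stored. Its level was 7.25, 5.88 and 7.20 counts per 10000 in Gal-high cells and 2.14, 1.90 and 1.82 in Gal-low cells. The lowest Gal-high set was above the highest Gal-low set by more than 3 counts per 10000, and the middle cells, at 4.36, 3.27 and 4.94, lay between in every set. The mean was 3.47-fold higher in Gal-high cells (log2 difference 1.41, SE 0.0597, limma adjusted p = 6.09e-18). Over 367 single cells at equal depth Chga had the highest mean within-set Spearman correlation with Gal of the genes tested, 0.63, and Myl1 the lowest, -0.67. Thy1, a GPI-anchored glycoprotein of neuronal membranes, was at 5.02, 4.34 and 5.57 against 1.70, 1.98 and 2.40 (1.16, SE 0.0606, limma adjusted p = 2.12e-15). Thy1 was higher in Gal-high cells in 3 of 3 sets and its groups did not overlap.

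Gda, Ecel1, Rgs4 and Rgs5 also rose by large margins. Gda, the guanine deaminase also known as cypin, was at 2.06, 2.04 and 1.84 counts per 10000 in Gal-high cells and at 0.504, 0.662 and 0.252 in Gal-low cells, 4.18-fold higher. Ecel1, a neuronal membrane protein of the neprilysin family that is induced by nerve injury, was at 1.58, 1.44 and 2.38 against 0.416, 0.592 and 0.715. Rgs4, which speeds the switching-off of G-protein alpha subunits, was at 5.82, 5.54 and 5.57 against 2.29, 2.70 and 3.54. In none of these did the Gal-high and Gal-low sets overlap, and the log2 differences were 0.92 (SE 0.0571), 0.82 (SE 0.0653) and 0.82 (SE 0.0688), with limma adjusted p of 1.72e-13, 6.73e-11 and 4.66e-10. Gda, Ecel1 and Rgs4 each had a mean within-set correlation of 0.48 with Gal.

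Rgs5, from the same family as Rgs4, is widely used as a marker of pericytes. It was at 1.66, 1.13 and 2.41 counts per 10000 in Gal-high cells and at 0.147, 0.184 and 0.264 in Gal-low cells (0.90, SE 0.0663, limma adjusted p = 1.16e-11). The 13 endothelial and mural markers in the table summed to 2.27 to 3.93 in Gal-high and 1.18 to 1.68 in Gal-low cells. Without Rgs5 the other 12 summed to 0.983 to 1.52 and 1.03 to 1.42, and Cdh5, Kdr and Kcnj8 were at 0 in both groups. Of the 3 of these markers tested, Rgs5 was the only one that passed.

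**Figure D3:**
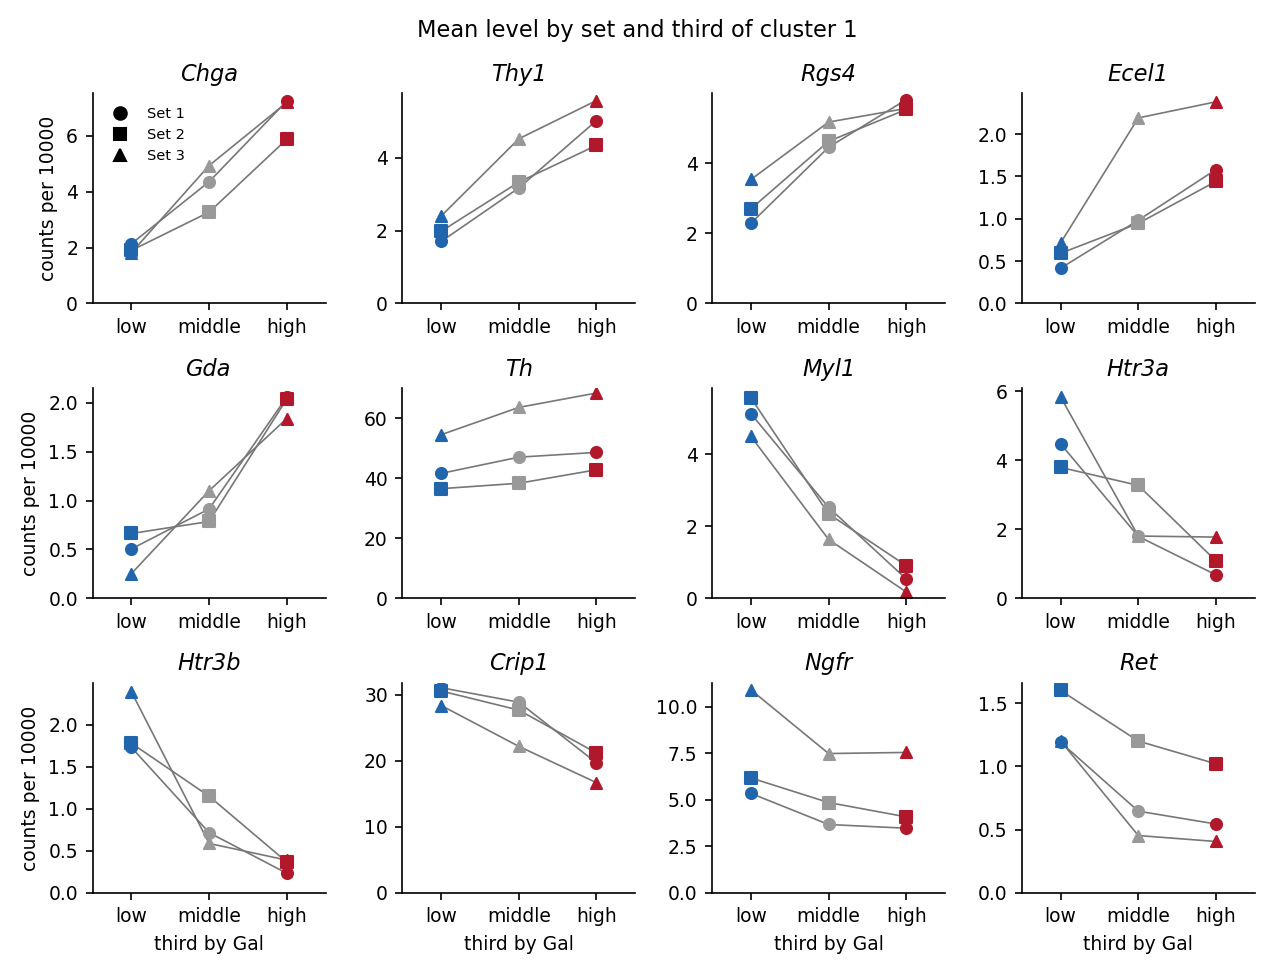
Mean level in counts per 10000 of 12 genes in the low, middle and high groups by Gal, with a symbol for each set and lines joining the groups of a set. Chga, Thy1, Rgs4, Ecel1, Gda and Th climb and Myl1, Htr3a, Htr3b, Crip1, Ngfr and Ret are lower in the high than in the low group of each set, with the middle of Ngfr in Set 3 just below its high group; for Th and Ngfr the sets differ from each other by more than the groups do.

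Adm, Sctr, Atp2b1, Anxa5, Nrsn1 and Cfap61 complete the 12 with the smallest p among those that were higher. Adm, the gene of the vasodilator peptide adrenomedullin, rose from 0.913 ± 0.167 to 2.03 ± 0.407 counts per 10000 (SD, n = 3 sets; log2 difference 0.66). Sctr, the secretin receptor, rose from 1.16 ± 0.174 to 2.31 ± 0.539, and Atp2b1, a calcium pump of the plasma membrane, from 2.75 ± 0.225 to 4.20 ± 0.212. Anxa5, a calcium-dependent phospholipid-binding annexin, rose from 9.97 ± 1.30 to 14.2 ± 1.63, and Nrsn1, a vesicle protein of neurons, from 5.05 ± 0.794 to 7.50 ± 1.48. Cfap61, a cilium-associated gene, was at 0.338 ± 0.0368 against 0.028 ± 0.00847, a low level on both sides. All of these were higher on 11 of 11 plates when the groups were cut anew within each plate.

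On the other side, Vstm2l, Spock3, Crabp1, Tmc3 and Ramp1 followed Myl1, Htr3a and Htr3b. Crabp1, which binds retinoic acid in the cytoplasm, fell from 1.64 ± 0.298 to 0.353 ± 0.115 counts per 10000 (SD, n = 3 sets; log2 difference -0.83). Spock3, a proteoglycan of the testican family, fell from 1.44 ± 0.140 to 0.357 ± 0.0653, and Vstm2l from 2.43 ± 0.145 to 0.901 ± 0.229. Ramp1, the partner protein that turns the calcitonin receptor-like receptor into a receptor for CGRP, fell from 2.87 ± 0.157 to 1.37 ± 0.0933. Tmc3, of the transmembrane channel-like family, fell from 1.83 ± 0.260 to 0.750 ± 0.172, and Cntn5, an adhesion protein of the contactin family, from 0.690 ± 0.176 to 0.112 ± 0.0435. Crip1, a small LIM-domain protein, was the most abundant of them and fell from 30.0 ± 1.46 to 19.2 ± 2.28. Fxyd5, a regulator of the sodium pump, fell from 4.92 ± 1.22 to 2.83 ± 0.772.

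The promoters of Gal and of 4 genes described with it are shown because Chga, Th and Scg2 rose with Gal and Htr3b fell. Each is the 250 bases before the RefSeq gene start in GRCm38.p6, read 5′ to 3′ on the gene's strand. Capitals mark GGGCGG, the GC box, in Gal and Chga; TGACGTCA, the palindromic cAMP response element, in Th and Scg2; and in Htr3b a pair of homeodomain cores, TAAT then ATTA with NNA between them.
Gal, chr19:3414545-3414794, minus strand: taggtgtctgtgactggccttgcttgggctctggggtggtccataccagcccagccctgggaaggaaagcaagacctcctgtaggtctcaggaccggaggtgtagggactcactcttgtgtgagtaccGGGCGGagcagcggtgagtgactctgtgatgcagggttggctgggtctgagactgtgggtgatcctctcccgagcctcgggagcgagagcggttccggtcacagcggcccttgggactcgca
Chga, chr12:102554691-102554940, plus strand: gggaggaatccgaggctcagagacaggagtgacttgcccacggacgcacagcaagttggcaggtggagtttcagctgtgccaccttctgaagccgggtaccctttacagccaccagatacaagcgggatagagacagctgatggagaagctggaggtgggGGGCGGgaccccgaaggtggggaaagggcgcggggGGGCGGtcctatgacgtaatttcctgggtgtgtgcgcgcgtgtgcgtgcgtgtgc
Th, chr7:142899996-142900245, minus strand: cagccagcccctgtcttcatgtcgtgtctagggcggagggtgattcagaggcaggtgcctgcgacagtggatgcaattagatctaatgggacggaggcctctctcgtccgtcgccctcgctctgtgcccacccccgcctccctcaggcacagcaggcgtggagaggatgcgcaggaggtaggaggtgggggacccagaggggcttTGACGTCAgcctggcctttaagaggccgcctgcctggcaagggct
Scg2, chr1:79440027-79440276, minus strand: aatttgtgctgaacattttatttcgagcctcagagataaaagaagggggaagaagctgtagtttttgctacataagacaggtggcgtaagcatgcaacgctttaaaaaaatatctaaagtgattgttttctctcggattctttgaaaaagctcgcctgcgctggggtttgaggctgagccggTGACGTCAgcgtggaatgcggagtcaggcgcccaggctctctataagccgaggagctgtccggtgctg
Htr3b, chr9:48964991-48965240, minus strand: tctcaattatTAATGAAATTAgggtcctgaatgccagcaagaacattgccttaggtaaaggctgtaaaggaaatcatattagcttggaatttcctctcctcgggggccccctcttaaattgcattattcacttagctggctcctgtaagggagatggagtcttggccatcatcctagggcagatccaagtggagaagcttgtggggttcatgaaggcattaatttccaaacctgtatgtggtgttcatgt
Both strands were searched. Of 32851 promoters of this length, 32.7% hold GGGCGG, 1.55% TGACGTCA and 0.247% the paired cores. The Gal promoter has 1 GC box, starting 122 bases before the gene start, and Chga has 2, at 90 and 55 bases. Th also holds 1 GC box, left in lower case, and Scg2 and Htr3b hold none in this window. Gal and Chga do not hold the exact letters TGACGTCA in this window, whereas Th has them at 45 and Scg2 at 68 bases. Near matches were not searched for, and the Chga sequence holds the similar TGACGTAA, left in lower case. A match to these letters is a description of the sequence and was not tested as a binding site.

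Of 14 genes of noradrenaline synthesis, storage and reuptake tested, 4 were higher, 1 was lower and 9 did not pass. Their median log2 difference was 0.12 against -0.003 over all genes. Counts of this and the lists below stand beside 3.20% called over all genes, 1.49% higher and 1.71% lower. Th, tyrosine hydroxylase and the rate-limiting step, was at 48.6, 42.8 and 68.4 counts per 10000 in Gal-high cells and at 41.6, 36.5 and 54.5 in Gal-low cells. Th was higher within each set, by 0.27 (SE 0.0351, limma adjusted p = 2.12e-06), but the sets overlapped between groups because Set 3 was high in both. Gch1, which makes the cofactor of tyrosine hydroxylase, rose from 4.51 ± 0.553 to 5.83 ± 0.216 and Slc18a2, the vesicular monoamine transporter, from 4.11 ± 0.397 to 5.02 ± 0.572 (SD, n = 3 sets). Slc31a1, a copper importer, was the fourth, with a difference of 0.19. Maoa, which degrades noradrenaline, fell from 9.74 ± 0.423 to 7.84 ± 0.483. Dbh (0.13, limma adjusted p = 0.0997), Slc6a2 (0.09) and Maob (0.09) did not pass.

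The granule genes did not move as a group with Chga. Of 24 genes of dense-core granules and prohormone processing, 2 were higher and 3 lower, with a median of -0.03. Scg2, secretogranin II, rose from 4.93 ± 0.321 to 6.28 ± 0.703 counts per 10000 (log2 difference 0.27, limma adjusted p = 0.000939). The prohormone convertase Pcsk2 fell from 3.37 ± 0.396 to 2.43 ± 0.583, Pcsk1n, an inhibitor of such convertases, by 0.17 and Rab27b, a granule-docking GTPase, by 0.22. Chgb, chromogranin B, stood at 3.40 ± 0.188 and 3.26 ± 0.354, and Vgf (-0.05), Pcsk1 (0.11), Cpe (0.02) and Pam (-0.15), whose products cut, trim and amidate peptides, did not pass either.

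Npy, the other main peptide of these neurons, was at 189, 184 and 173 counts per 10000 in Gal-high cells and 211, 198 and 187 in Gal-low cells. Npy was lower in 3 of 3 sets by a small margin (-0.13, SE 0.0264, limma adjusted p = 0.0012), and the middle cells were below both groups in Sets 2 and 3. With the groups cut anew within each plate, Npy was lower in Gal-high cells on 7 plates and higher on 4. The call was lost with voom weights, with groups divided at the median, with every gene of non-zero count and without the block. Of 7 neuropeptide genes tested, Agrp was the only one higher, at 0.198 ± 0.0515 against 0.0736 ± 0.0577, lost in 9 of 16 repeats. Vip was at 0.191 ± 0.132 and 0.214 ± 0.0889. Galr2, a galanin receptor, was below the level needed for testing, and Galr1 and Galr3 were not analysed here.

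Receptors for growth factors went in both directions. Ret, the tyrosine kinase shared by receptors of the GDNF family, was at 0.544, 1.02 and 0.406 counts per 10000 in Gal-high cells and at 1.19, 1.60 and 1.20 in Gal-low cells (-0.46, SE 0.0595, limma adjusted p = 2.12e-06). Ret was lower within each set and the groups did not overlap. Gfra3, the co-receptor through which artemin acts on Ret, went the other way, at 0.593, 0.573 and 1.14 against 0.187, 0.135 and 0.159 (0.47, SE 0.0556, limma adjusted p = 4.69e-07). Ngfr, the p75 neurotrophin receptor, fell from 5.34, 6.17 and 10.9 to 3.47, 4.08 and 7.54 (-0.51, SE 0.0511, limma adjusted p = 1.42e-08), in each set although the sets overlapped. Ntrk3, the receptor for neurotrophin 3, fell from 0.247 ± 0.0631 to 0.090 ± 0.0166, lost in 4 of 16 repeats. Of 11 genes of these families tested, 1 rose and 3 fell, and Gfra2 was below the level for testing.

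Of 23 genes of activin, BMP and TGF-beta signalling, 1 rose, 4 fell and 18 did not pass, with a median of -0.02. Bmp4, a BMP ligand, fell from 0.478 ± 0.133 to 0.103 ± 0.00537 counts per 10000. The Id genes encode inhibitors of bHLH transcription factors: Id3 fell from 0.897 ± 0.139 to 0.294 ± 0.143, Id2 from 1.02 ± 0.119 to 0.614 ± 0.180 and Id1 by 0.17 on the log2 scale. The receptor gene Bmpr1b rose from 0.0453 ± 0.00842 to 0.165 ± 0.0235. Fst, the activin-binding follistatin, was at 2.70 ± 0.263 and 2.59 ± 0.324 and did not pass.

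Of 15 transcription factors of sympathetic identity, 1 was higher and 4 were lower, with a median of 0.05. Isl1, a LIM homeodomain factor, rose from 2.93 ± 0.105 to 4.00 ± 0.263 counts per 10000. Among those that fell, Hand1 went from 2.86 ± 0.479 to 2.19 ± 0.240, Tlx2 from 2.14 ± 0.952 to 1.47 ± 0.549 and Cux2 from 0.323 ± 0.0797 to 0.114 ± 0.0372. Hoxc8 was the only 1 of 6 Hox genes tested that passed, at 0.502 ± 0.131 against 0.789 ± 0.0753, and its call was lost in 6 of 17 repeats.

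Programmes linked to galanin induction in other settings were compared as well. No immediate early or CREB target gene passed of 16 tested with limma, with 2 at an unadjusted p under 0.05 and none passing with voom weights. Among them Fos was at 0.368 ± 0.106 and 0.388 ± 0.222 counts per 10000, and Crem at 0.510 ± 0.0575 and 0.444 ± 0.0861. Of 10 genes of gp130 cytokine and leptin family signalling 1 passed: Socs2 fell from 1.10 ± 0.172 to 0.782 ± 0.162, lost in 6 of 17 repeats. The receptor subunits Lifr and Il6st differed by 0.04 (SE 0.0416) and -0.01 (SE 0.0354), and Socs3 was below the level for testing. Of 15 axon injury and growth genes Ecel1 and Stmn4 rose, Hspb1 fell and 12 did not pass. Stmn4 was lost in 5 of 17 repeats, among them without Set 1. Gap43 (0.07), Sox11 (0.05) and Jun (-0.11) were among those that did not pass. The injury markers Atf3 and Sprr1a were at 0.0248 or less in both groups and were not tested.

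Other neuronal groups held a few calls each, in both directions. Of 21 transmitter and peptide receptors the 3 that passed were lower, and the 3 are ligand-gated cation channel subunits: Htr3a, Htr3b and P2rx2, an ATP-gated subunit that fell from 0.305 ± 0.072 to 0.0651 ± 0.0141 counts per 10000. Agtr1a, the angiotensin receptor, was at 0.832 ± 0.116 and 0.959 ± 0.119. Of 22 potassium channel genes 3 were higher, Kcnd2, Kcnh7 and Kcnip4, each at low levels and lost in 4 to 8 of 16 or 17 repeats. Of 27 sodium, calcium, HCN and TRP channel genes 1 was lower, Scn7a, lost in 7 of 16 repeats, a share near the 3.20% called over all genes. Of 31 synaptic vesicle genes 2 rose and 1 fell: Snap25, a SNARE protein, rose from 18.3 ± 3.17 to 22.7 ± 5.00, while Syn2, synapsin II, fell from 18.2 ± 1.44 to 15.5 ± 1.30. Of 20 cytoskeletal genes Ina, alpha-internexin, rose and Nefl, the light neurofilament, fell. Of 16 calcium sensors Caln1 was higher and Hpca, Hpcal1 and Necab1 were lower, Hpca from 0.738 ± 0.104 to 0.276 ± 0.0836. Of 28 guidance and adhesion genes Epha5 and Pcdh9 (lost in 5 of 17 repeats) were higher and Nrp2 and Cntn5 lower.

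Among metabolic and housekeeping groups, transcripts encoded by the mitochondrial genome were lower. Of 8 tested, 5 fell, with a median of -0.16. Of these, mt-Nd5 went from 10.6 ± 4.39 to 7.98 ± 3.06 counts per 10000 and mt-Nd2 from 17.6 ± 6.89 to 14.4 ± 4.81. The falls of mt-Nd1, mt-Nd4 (lost in 5 of 17 repeats) and mt-Nd6 (lost in 4) were smaller. The mitochondrial share of counts moved the same way, at medians of 1.74%, 2.49% and 1.20% in Gal-high and 2.00%, 2.84% and 1.34% in Gal-low cells of the 3 sets. No nuclear OXPHOS subunit passed of 66 tested with limma, with 6 at an unadjusted p under 0.05 and none with voom weights, at a median of -0.03. Of 79 cytosolic ribosomal protein genes 3 fell, Rpl14, Rps19 (lost in 4 of 17 repeats) and Rpl22l1 (lost in 8), and the median was -0.06. Over all genes 3.20% were called and 1.71% were lower, so this count is near the background, and 2 of the list passed with voom weights. Of 23 cholesterol synthesis genes 2 rose, Fdps (lost in 4 of 17 repeats) and Acat2 (lost in 5). Of 18 interferon response genes none passed with limma, 9 had an unadjusted p under 0.05 and 3 passed with voom weights.

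Of the genes that set cluster 1 apart from its neighbours, some passed between the groups and most did not, beside 3.20% called over all genes. These lists came from earlier results of the same cells and are no independent evidence. Of 8 genes higher in cluster 1, Epha5 and B230312C02Rik were higher and Npy lower in Gal-high cells. Their median was 0.04, with 4 at an unadjusted p under 0.05. B230312C02Rik was lost in 4 of 17 repeats, among them with cells ranked within plates. Of 7 tested genes higher in cluster 2, Fxyd2 was higher, in 2 of 3 sets, and Ddah1 lower, with a median of -0.03 and 5 at an unadjusted p under 0.05. The call of Fxyd2 was lost in 6 of 17 repeats, among them without Set 1, and that of Ddah1 in 5, also without Set 1. None of the 5 tested genes higher in cluster 4 passed, at a median of -0.02, with 0 at an unadjusted p under 0.05 and 0 with voom weights. Ncald, of the cluster 1 list, differed by 0.07 (SE 0.0478) and Edn3, of the cluster 2 list, by -0.03 (SE 0.0249).

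The same division by Gal was made in cluster 2, whose 335 cells gave 110 Gal-high and 110 Gal-low cells. Their Gal means were 21.7, 14.8 and 24.4 against 4.22, 1.52 and 3.30 counts per 10000 in the 3 sets, so the Gal-high means of cluster 2 lay near the Gal-low means of cluster 1. There 83 of 10369 genes passed (0.800%), 30 higher (0.289%) and 53 lower (0.511%), with 12 after thinning and 0 without the block. Of the 330 genes called in cluster 1, 293 were tested in cluster 2 and 27 passed in the same direction, which is 8.18% of the cluster 1 calls and 32.5% of the cluster 2 calls. They include Chga (0.48), Adm (0.31), Ecel1 (0.26), Sctr (0.13), Epha5 (0.38), Myl1 (-0.57), Htr3a (-0.41), Ret (-0.32) and Ramp1 (-0.25). Crip1 and Tspo passed in the opposite direction. Crip1 was higher in Gal-high cells of cluster 2, at 8.94 ± 0.979 against 6.30 ± 2.53 counts per 10000.

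The difference between the clusters was tested itself, as an interaction, and 173 of 10409 genes passed (1.66%), 88 (0.845%) with the larger value in cluster 1 and 85 (0.817%) with the smaller. The count was 71 without Set 2, 70 after thinning and 25 without the block. Of the 330 cluster 1 genes, 124 passed this test. Thy1 rose in cluster 1 and stood at 6.97 ± 0.377 and 7.11 ± 0.653 counts per 10000 in cluster 2, above the cluster 1 Gal-high mean in both groups (interaction 1.25, SE 0.0914, limma adjusted p = 1.68e-12). Htr3a fell further in cluster 1 (-1.26, SE 0.103, limma adjusted p = 1.31e-10), and Crip1 fell in cluster 1 but rose in cluster 2 (-1.31, SE 0.102, limma adjusted p = 3.06e-08). Th rose by 0.27 in cluster 1 and was at 59.4 ± 14.3 and 65.9 ± 19.1 in cluster 2 (interaction 0.43, SE 0.0605, limma adjusted p = 6.34e-06). For Ret and Epha5 the interaction did not pass (-0.14, SE 0.0896, and -0.03, SE 0.0867). Npy could not be placed: its cluster 2 difference was 0.68 with an SE of 0.442.

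**Figure D4:**
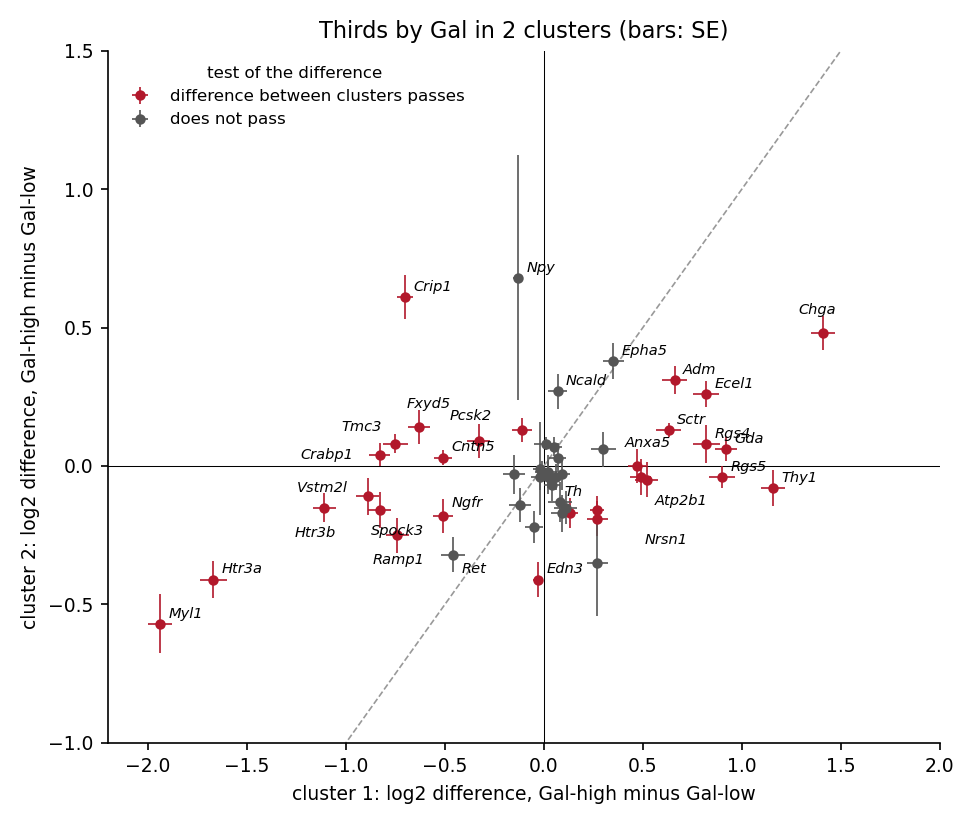
Log2 difference between Gal-high and Gal-low cells in cluster 1 (across) and cluster 2 (up) for the fixed genes and those with the smallest p, with SE bars; the dashed line marks equal differences. Red points passed the interaction test and grey ones did not; Chga, Ecel1 and Adm lie right of the line and above 0, Thy1, Rgs5, Gda and Rgs4 lie far right near 0, and Crip1 has opposite signs.

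Htr3a, Htr3b and Myl1 were then used together to describe how the cells of cluster 1 were arranged; this grouping was chosen after their values were seen and carries no test. In 367 cells thinned to 15000 counts, 97 had no count of the 3 genes, 68 had 1 to 3, 47 had 4 to 9 and 155 had 10 or more. Of the cells with none, 63 were Gal-high, 33 middle and 1 Gal-low. Of those with 10 or more, 13 were Gal-high, 43 middle and 99 Gal-low. Mean Gal was 76.8 ± 9.82 counts per 10000 in cells with none and 72.5 ± 12.2, 47.2 ± 9.09 and 32.2 ± 3.56 in the others in order (SD, n = 3 sets).

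Chga went from 6.78 ± 0.569 in cells with no count of the 3 genes to 1.83 ± 0.140 counts per 10000 in cells with 10 or more, Thy1 from 5.22 ± 0.546 to 2.01 ± 0.388, and Rgs4 from 6.30 ± 0.388 to 2.91 ± 0.169. Npy stood at 172 ± 8.04 and 195 ± 17.1 at the ends, higher at 10 or more in 3 of 3 sets, and Th at 51.2 ± 12.5 and 46.0 ± 10.8, lower in 3 of 3 sets. Inside the group of 10 or more, over its 155 cells, the mean within-set Spearman correlation with Gal was 0.41 for Th, -0.37 for Ret, -0.29 for Ngfr and -0.34 for Tbx3, a T-box factor named after its values were seen. Over all 367 cells these values were 0.34, -0.29, -0.35 and -0.34. Inside the group it was nearer 0 than over all cells for Chga (0.23 against 0.63), Gda (0.07 against 0.48) and Crabp1 (-0.08 against -0.38). Rgs5 (-0.14 against 0.38) and Tmc3 (0.20 against -0.37) had the other sign. In the group of 1 to 3 counts the correlation with Gal was 0.49 for Chga, 0.50 for Rgs5 and -0.20 for Tmc3. In that of 4 to 9 it was 0.37, -0.26 and -0.09. Over the 97 cells with none, the correlation with Gal was 0.15 for Th, 0.21 for Chga, -0.03 for Ret and 0.35 for Npy. These correlations are descriptions over cells that share libraries and Gal counts.

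**Figure D5:**
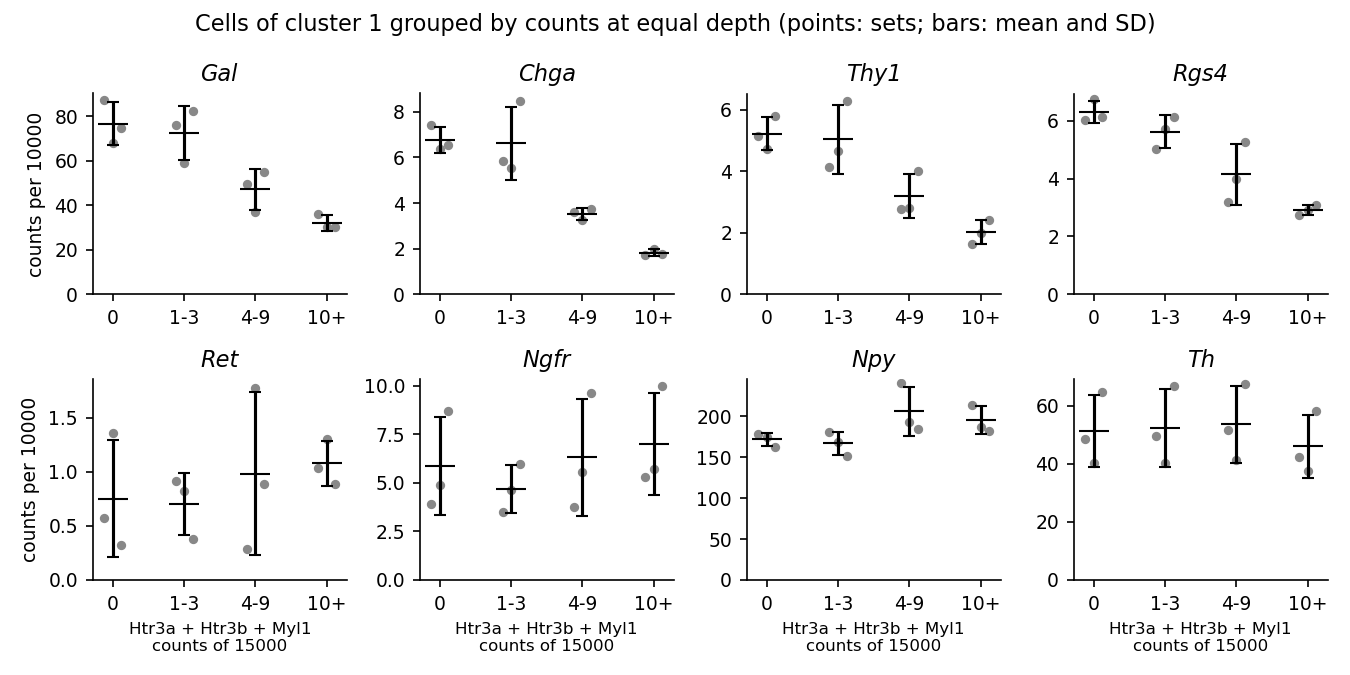
Mean level in counts per 10000 of 8 genes in cluster 1 cells grouped by their summed Htr3a, Htr3b and Myl1 counts among 15000 (0, 1 to 3, 4 to 9, 10 or more; 97, 68, 47 and 155 cells). Points are sets and bars the mean and SD; Gal, Chga, Thy1 and Rgs4 step down between 1 to 3 and 4 to 9 counts, while Npy is higher and Th lower in each set at 10 or more than at 0.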

How the data were processed

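Per the labels' protocols, neurons of mouse stellate ganglia were sorted singly into 96-well plates, the cDNA of a plate was combined, and libraries of transcript 3′ ends were sequenced. The submitters' processing notes name GRCm38 as the build and the tools STAR 2.5.3a, featureCounts 1.5.3, SAMtools 1.4.1 and Seurat (no version), per the labels. The deposited table holds the natural log of 1 plus counts per 10000 for 19444 genes, and dividing by the smallest step of a cell gave whole counts, within 0.001, for 100.0% of the values above 0. Cluster numbers were deposited by the authors and have no unit. Cluster 1 cells had 6108 to 67710 counts each, with a median of 28396, and plates 2050165 to 3373157 in all. The 96 cell barcodes mark wells, and all 96 occur on more than 1 plate. Plates of one set are repeats of one pool. No doublet caller was run, and the sort event log was not used because it names no cell.

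In each set the cells of cluster 1 were ranked by Gal, and the number of cells divided by 3, rounded down, was taken from each end. Values were put on the scale log2(1 + counts per 10000) and averaged over the cells of a group in a set, and these 6 means were tested with limma 3.58.1 in R 4.3.3 (trend and robust, two-sided, set as a block) over genes with a mean of at least 0.05 counts per 10000. The unit is a log, so limma was the test; summed recovered counts with voom weights were an alternative. The block was used because both groups of a set come from the same pooled ganglia. Deviations of the groups from their means over the sets correlated at 0.658, 0.700 and 0.746 for the same set and at -0.534 to -0.024 for other sets. The deviations of a group cancel out over the sets, so the values for other sets are partly fixed by those for the same set. The labels name the set as a batch, which here is also the pool of animals. With the block, p-values measure only how the difference between the groups varied over these pools. Other measures were compared with exact permutation tests over 3 pairs. For shares of cells and correlations, cells were thinned to 15000 counts, which left out 7 Gal-high and 4 Gal-low cells. The test was checked on simulated data, made from cluster 1 cells split at random with known genes lowered. Those groups were not chosen by Gal, and the outcome of the check is not reported here. Tables and figures were made in Python 3.11.15 (numpy 2.4.6, scipy 1.17.1, matplotlib 3.10.9; pandas 2.3.3).

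The groups, the 36 gene lists and the genes named were chosen with earlier results of these data known. Named are 34 fixed genes, on either side the 12 of smallest p and the 6 of largest difference, up to 4 called members of each list, the 4 of smallest interaction p on either side, and the 6 with the highest and the 6 with the lowest correlation with Gal over cells. Slc31a1, Id1, mt-Nd1, Tspo, Galr2, Tbx3 and the mural markers at 0 were added after their values were seen. Gfra2, Atf3, Socs3 and Sprr1a were below the minimum level in cluster 1. A few genes that these rules name are not reported here. Positions are from GENCODE M21, which matched 18737 of the symbols, and promoters from RefSeq (GRCm38.p6). Other fits used other filters, scalings, pseudocounts, group sizes and rankings, thinned cells, and left out the block, each set, and the 39 cells, 10% of cluster 1, richest in glial counts.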

Additional observations from a re-analysis of the deposited data

Results flagged for a closer look

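The difference between Gal-high and Gal-low cells was set against the same difference in cluster 2 for 39 genes, the fixed genes tested and those with the smallest interaction p, the latter picked by this test. For 16 of them the interaction passed at a limma adjusted p under 0.05, and these are given here because the effect of the same contrast differed between the clusters; positive values mean a larger value in cluster 1. Among noradrenergic genes the differences between clusters were 0.43 for Th, 0.30 for Dbh and 0.46 for Slc18a2. Each was higher in Gal-high cells of cluster 1 in 3 of 3 sets and had a cluster 2 value below 0 (-0.16, -0.17 and -0.19), none of which passed alone. For granule and convertase genes they were 0.93 for Chga, which passed upward in both clusters, and -0.42 for Pcsk2.

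Of the genes with the largest rise in cluster 1, Thy1 differed between clusters by 1.25, Gda by 0.86 and Rgs5 by 0.94. Of those with the largest fall, Htr3a differed by -1.26, Htr3b by -0.96, Crabp1 by -0.86 and Tmc3 by -0.82. Htr3a passed downward in cluster 2 too (-0.41), whereas Htr3b (-0.15), Crabp1 (0.04) and Tmc3 (0.08) did not pass there. Edn3 (0.39) and Gfra2 (0.30) fell in Gal-high cells of cluster 2, by 0.41 and 0.35, and stood at 0.0599 and 0.0273 counts per 10000 in Gal-high cells of cluster 1. Ngfr differed by -0.33 and Jun by -0.24. The groups compared do not span the same Gal levels in both clusters: Gal-high means were 71.6 to 98.1 counts per 10000 in cluster 1 and 14.8 to 24.4 in cluster 2.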

How the results depend on the processing

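None of the 330 calls in cluster 1 changed sign in the 17 other settings where it was tested. A minimum of 0.5 counts per 10000 left 191 of them in the test, groups of the outer 1 in 6 left 328, groups divided at the median and depth bins 329 each, and the others all 330. In all 16 settings that kept the block, 48 of the 330 genes were tested and passed, among them Chga, Thy1, Gda, Rgs4, Rgs5, Ecel1, Adm, Htr3a, Htr3b, Crabp1, Ret, Ngfr and Th, and 23 of these also passed without it. Without the block that pairs the groups of a set, 43 genes passed (16 higher, 27 lower), and Th, Ret, Ngfr and Crip1 were lost. With every gene of non-zero count tested, 73 passed (32 and 41). Leaving out each set in turn gave 217 to 356 genes, 98 to 160 of them higher and 119 to 196 lower, the lowest without Set 1. The other settings gave 238 (thinned to 15000 counts) to 427 (ranked within plates), and the share of calls that were higher ranged from 37.2% to 52.6% over all settings.

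In cluster 2 the 83 calls fell to 0 without the block, with 231 of 10369 genes at an unadjusted p under 0.05 in limma; voom weights were not run there. Thinning left 12 (4 higher, 8 lower). Leaving out each set gave 54 to 176 calls, 27 to 55 higher and 27 to 121 lower, the most without Set 1 and the fewest without Set 3. The 173 interaction calls went to 25 without the block (8 and 17), 70 with thinning (30 and 40) and 71 to 131 without each set (26 to 66 and 45 to 65), the fewest without Set 2. The difference in median counts per cell, -4266, was -2390 with groups divided at the median, -8253 with the outer 1 in 6 and -362 when cells were ranked within 4 bins of depth, where 356 genes passed, and -5307 to -3584 without each set. Some settings also held fewer sets or counts, and the cause of these shifts was not tested. With a median of 28396 counts a cell, genes under a mean of 0.05 counts per 10000 were not tested.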
